A study of Drosophila melanogaster with 24 samples.

Results

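Differences between females and males were described across genes in whole adult flies of 1 control genotype, w;arm-GAL4/+. The rule took the arrays of the control for the Hr96 (Dhr96) knockdown by title and sex, which gave 3 arrays of females and 3 arrays of males, 6 of the 24 arrays of the series. Flies of this genotype carry 1 copy of arm-GAL4, in which the promoter of armadillo drives the yeast activator GAL4 in most tissues, and their genotype lists no transgene that GAL4 would switch on. Further genotypes serve for comparison, each with 3 arrays of females and 3 of males. They are the flies labelled knockdown, w;arm-GAL4/+;UAS:RNAi_Dhr96Hp_3/+, which carry the same driver and 1 line of a hairpin transgene against Hr96, and the driver control w;Act5C-GAL4/+. All flies were 0 to 3 days old, shared the w background and were frozen with the sexes apart, and replicates 1, 2 and 3 of every group were reared on 3 batches of the same diet. The number of flies behind an array, their age within those days and their mating status are not stated in the sources used. The p-values measure the spread between samples of a group, pooled over all 24 arrays except where the compared arrays were fitted alone.

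The series as a whole asks how lowering or raising Hr96, a nuclear receptor, alters gene expression. Each array holds total RNA of whole animals, so the gonads, the glands of the reproductive tract and the rest of the body are read together, and fewer cells of a type and less RNA per cell cannot be told apart. All levels below are log2 of the authors' array intensity and all differences are females minus males on that scale, where 1 is a 2-fold difference. A gene was read by its probe set with the highest mean over all arrays, and was called where limma gave an adjusted p under 0.05 over all probe sets. No detection calls came with the table. Where a group mean lay below 4.38, the lowest lower quartile of the 6 arrays (an intensity of 20.8), the level is called low and the size of the difference is uncertain.

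In Drosophila the ovary of an adult female holds dividing germ cells, nurse cells that load the oocyte with RNA, and somatic follicle cells that secrete the eggshell. Its yolk is made by the fat body and the follicle cells. The testis of a male runs a separate transcription programme in spermatocytes, much of it from testis copies of genes that other cells also use, and the somatic accessory glands and ejaculatory duct and bulb make the seminal fluid.

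Genes that mark the sex were read first. Yp1, which encodes a yolk protein, was at 13.07, 12.5 and 13.54 in females 1, 2 and 3, against 4.82, 4.87 and 4.32 in males 1, 2 and 3, a difference of 8.36 ± 0.42 (SE; adjusted p = 6.7e-14). Mst84Da, a sperm tail protein gene, was at 4.6, 4.98 and 4.91 in females and 12.98, 12.74 and 12.68 in males, a difference of -7.97. Acp26Aa, which encodes the seminal fluid protein ovulin, was low in females at 3.4, 3.86 and 3.46 and stood at 11.94, 11.49 and 12.02 in males, a difference of -8.25. Each of these genes was far apart between the sexes on every array, in the direction of the labels. Correlations between arrays were 0.976 to 0.987 among females, 0.986 to 0.989 among males and 0.694 to 0.745 between a female and a male array.

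**Figure D1:**
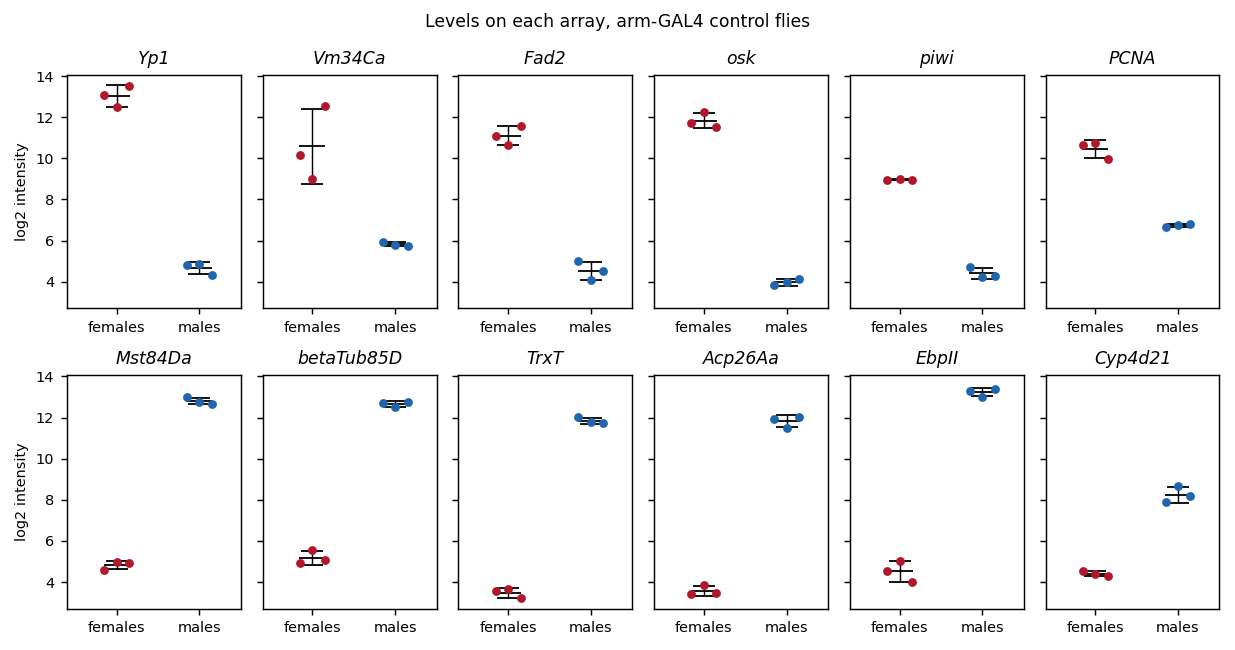
Log2 intensity of 12 genes on each array, females (red) left of males (blue) in each panel; points are the 3 arrays of a group, the wide bar is the mean and the caps are 1 SD. The upper row holds genes higher in females, where Vm34Ca spreads from 9 to 12.55 among females, and the lower row holds genes higher in males.

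Of 18769 probe sets, 6204 (33.1%) were called higher in females and 3078 (16.4%) higher in males, and 2786 (14.8%) and 2150 (11.5%) were also at least 2-fold apart. By 1 probe set for each of 11981 genes, 4656 (38.9%) were called higher in females and 2650 (22.1%) higher in males, and 2377 (19.8%) and 1922 (16.0%) at least 2-fold. These shares are the background for every list below. The directions differed in how far apart the sexes stood. Among genes called and at least 2-fold apart, the median difference was 1.53 for those higher in females and -3.31 for those higher in males. At 16-fold or more there were 66 genes higher in females and 705 higher in males, and at 64-fold or more 20 and 160. The other sex was low for 88 (3.7%) of the 2377 genes higher in females and for 431 (22.4%) of the 1922 higher in males. The groups did not overlap for 2369 of the 2377 genes and for 1915 of the 1922. These genes were picked by the size and call of their difference, so little overlap follows from the choice and is no further result. The share without overlap over all genes is not given here.

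The split of calls moved most when arrays were shifted to a common median, and less under other scalings. The median difference over all genes was 0.20, and the median intensity was 55.5 to 56.8 on the female arrays, against 63.6 to 66.3 on the male arrays. Shifting every array to a common median added 0.22 to every difference. The calls were then 10676 higher in females and 2592 higher in males, so that females had 80.5% of the calls in place of 66.8%, and 3604 and 1994 at 2-fold. Differences well under 1 on the log2 scale are therefore best read against the 0.20 of all genes.

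**Figure D2:**
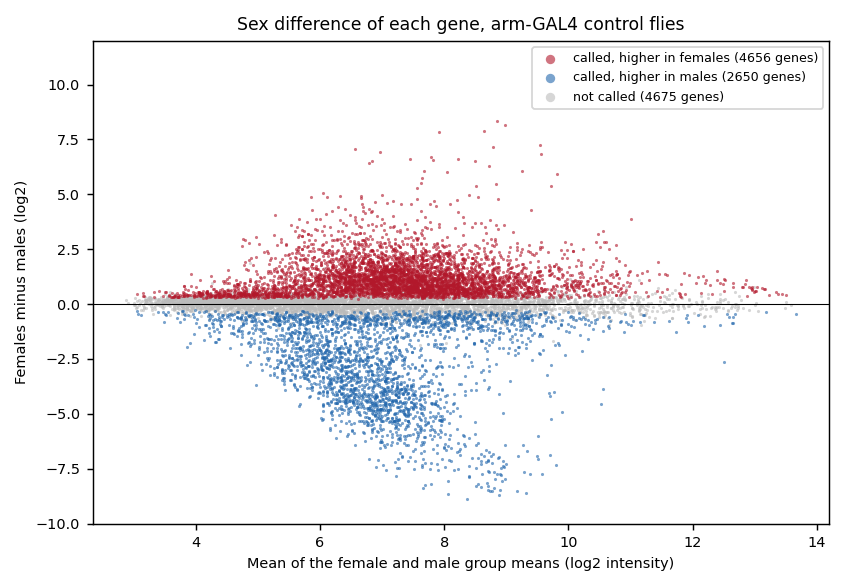
Each of 11981 genes by the mean of its group means (x axis, log2 intensity) and its difference, females minus males (y axis, log2); red and blue points were called higher in females or in males. Genes higher in males reach farther from 0, with 705 of them at 16-fold or more against 66 of the genes higher in females.

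Of the 12 genes with the largest differences higher in females, 6 encode yolk or chorion proteins (Yp1, Yp2, Yp3, Cp19, Cp36 and Cp16). A further 3, osk, nanos and dhd, are maternal germline genes. The last 3 are Muc12Ea, CG43074 and CG43090, which were at 11.05, 10.56 and 10.66, at 10.22, 9.05 and 11.07, and at 10.37, 9.86 and 11.08 in females, and low in males by their group means. Of the 12 largest differences higher in males, 6 are accessory gland protein genes (Acp53Ea at -8.90, Acp63F, Acp98AB, Acp53C14b, Acp53C14a and Acp36DE). EbpII, which encodes an ejaculatory bulb protein, differed by -8.72 and the testis thioredoxin gene TrxT by -8.36. BG642312, CG31226, CG9920 and lncRNA:CR9284 differed by -8.52, -8.51, -8.45 and -8.37. All 24 of these genes kept their calls when single arrays were left out.

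Of the lists higher in females, the somatic genes of yolk and chorion had the largest medians. All 21 measured genes of the yolk, vitelline membrane and chorion lists were called higher in females, with list medians of 8.18, 3.11 and 6.10. Yp2 was at 12.97, 12.47 and 13.77 in females and at 5.36, 4.43 and 4.87 in males. Cp36, a major chorion protein gene, was at 12.74, 11.35 and 12.98 in females, against 5.44, 5.54 and 4.62 in males, a difference of 7.15 ± 0.62. Vm26Aa, a vitelline membrane protein gene, was at 10.52, 10.55 and 12.71 in females, against 6.71, 6.38 and 6.34 in males, a difference of 4.79. No array of a male reached the lowest array of a female for these 3 genes.

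Female arrays differed among themselves in these genes far more than male arrays did. Vm34Ca, another vitelline membrane gene, was at 10.18, 9 and 12.55 in females and at 5.94, 5.79 and 5.74 in males. Cp7Fc, a chorion gene, was at 6.95, 5.21 and 10.73 in females, against 4.27, 4.16 and 4.36 in males, and its difference of 3.37 ranged from 1.82 to 4.58 as single arrays were left out. Female 3 was the highest and female 2 the lowest for both. Fcp3C, a follicle cell protein gene, was at 6.98, 5.72 and 9.86 in females, against 5.75, 5.79 and 5.29 in males, and females and males overlapped. The call of Fcp3C was lost without female 3 or male 3, where its difference fell as low as 0.74, and so was that of Vm26Ac. The call of psd, which encodes the vitelline membrane protein Palisade, was lost without female 3 or male 2, and that of Vm32E without female 3. Without female 3, 6 of the 10 vitelline membrane genes were called, with a median of 2.46.

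Other somatic genes of the female tract were called less completely, 4 of 10, a share near the 38.9% of all genes called higher in females. Send1, a protease gene of the spermatheca, which stores sperm, was at 7.57, 6.41 and 8.01 in females and low at 3.8, 3.57 and 3.82 in males, a difference of 3.60. Hr39, a nuclear receptor gene needed to form spermathecal glands, was at 7.43, 7.75 and 7.07 in females, against 6.81, 6.97 and 6.8 in males, and its call was lost without female 2. Send2 (-0.13) and lz (0.07), the rest of the spermatheca list, were not called. Of 6 follicle cell patterning genes 2 were called, ndl, a protease gene of the eggshell pathway, at 1.64 and slbo, a transcription factor gene of the border cells, at 0.49. The call of slbo was lost without female 2, and 4 of the 6 genes were called once arrays shared a median.

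Germline genes of the oocyte were mostly higher in females. Of 35 measured genes for oocyte patterning and maternal supply, 33 were called higher in females and 27 at least 2-fold, with a median of 2.72. osk, whose RNA marks the posterior pole of the oocyte, was at 11.74, 12.26 and 11.51 in females and low at 3.82, 3.97 and 4.15 in males, a difference of 7.85 ± 0.22 (adjusted p = 2.4e-18). nanos, a translational repressor gene of the same pole, was at 11.24, 11.7 and 10.44 in females, against 4.65, 4.28 and 4.39 in males. For both genes every female array was more than 5 log2 units above every male array.

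Genes with other roles in the oocyte followed in size. yl, the receptor that takes up yolk proteins, was at 10.46, 10.34 and 9.81 in females, against 5.05, 4.8 and 4.92 in males, a difference of 5.28. mtrm, an inhibitor of Polo kinase in the oocyte, differed by 6.54, the RNA-binding protein gene orb by 6.53 and otu by 6.41. gnu, png and plu, which together form the kinase complex that starts the embryonic cycles, differed by 5.73, 2.72 and 3.39. Smaller differences were called for grk (0.88), which signals from oocyte to follicle cells, and for vas (0.68), which was low in males and stood just above the low limit in females at 4.62, 4.75 and 4.47. The 2 genes not called were exu (-0.62) and pum (0.15), and both have a second probe set that is described below.

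Meiotic genes went both ways. Of 17 genes for recombination and segregation, 11 were called higher in females and 3 higher in males. c(3)G, the central protein of the synaptonemal complex that pairs homologous chromosomes, was at 7.38, 7.59 and 7.52 in females and at 4.66, 4.55 and 4.82 in males, a difference of 2.82. Its partners cona and corolla were called in the opposite direction. cona was at 5.13, 4.92 and 5.04 in females, against 7.78, 7.78 and 8.06 in males (-2.84), and corolla was at 6.06, 6.3 and 5.98 in females, against 9.04, 8.75 and 8.75 in males (-2.74). ord, which holds sister chromatids together in meiosis of both sexes, was low in females and differed by -1.64. nod, a kinesin-like gene of chromosome segregation in the oocyte, differed by 2.80, and mei-W68, the gene of the break-making enzyme, was low in both sexes and not called.

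Genes of the lists assigned to germ cells of both sexes were also mostly higher in females. Use of these genes by somatic cells of the gonad was not tested. In the piRNA pathway, which silences transposons, 21 of 24 genes were called higher in females, with a median of 2.19. piwi was at 8.95, 8.98 and 8.93 in females, against 4.7, 4.25 and 4.28 in males, a difference of 4.54 ± 0.19. The other Argonaute genes of the pathway, AGO3 and aub, differed by 3.63 and 2.36. papi, a Tudor-domain gene of the same pathway, was the 1 member called higher in males, at 8.49, 8.75 and 8.52 in females and 9.36, 9.23 and 9.21 in males. Hen1 (0.03) and fs(1)Yb (0.15) were not called.

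Among 10 genes of germline stem cells and early germ cells, 7 were called higher in females and 2 higher in males. Some of the 10 are also counted in other lists. nanos and ovo are in the oocyte list, mei-P26 in the meiotic list, Sxl in the sex determination list and bol in the spermatocyte list. bam, the differentiation factor of early germ cells, was at 7.76, 7.74 and 6.29 in females and low at 4.3, 4.01 and 4.21 in males. Its partner bgcn was called in the opposite direction, at 5.39, 4.99 and 4.9 in females and 7.31, 6.96 and 7.11 in males. zpg, a gap junction gene of germ cells, differed by 4.96. bol, which male germ cells need to enter the meiotic divisions, differed by -5.32 in the probe set read. Its other probe sets, at -0.09 and 0.11, were not called.

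Genes of DNA replication and the cell cycle were higher in females without exception among the 22 measured, all at least 2-fold, with a median of 3.52. CycB, the mitotic cyclin B gene, was at 12.26, 12.67 and 11.98 in females, against 5.76, 5.53 and 7.35 in males, a difference of 6.08. PCNA, the sliding clamp of DNA polymerase, was at 10.64, 10.75 and 9.97 in females and at 6.67, 6.74 and 6.83 in males. The replicative helicase genes Mcm2, Mcm3, Mcm5 and Mcm6 differed by 4.57, 4.03, 4.57 and 3.49. twe, the meiotic Cdc25 phosphatase gene that is known for its role in spermatocytes, was at 7.82, 7.67 and 6.33 in females and 5.14, 5.62 and 5.44 in males.

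Eggshell and yolk genes did not vary together with replication and oocyte genes over the female arrays. The replication list stands for dividing cells and was not assigned to germline or soma. The vitelline membrane list had medians of 7.92, 6.46 and 9.41 in females 1, 2 and 3, the chorion list 12.52, 10.59 and 12.4, and the yolk list 12.97, 12.47 and 13.59. The replication list had 8.98, 9.17 and 8.11 and the oocyte list 9.51, 9.64 and 9.21. So female 2 was lowest in the eggshell and yolk lists and highest in the replication and oocyte lists, and female 3 was highest in vitelline membrane and yolk genes and lowest in replication genes. On the male arrays the medians of these 5 lists ranged from 4.8 to 5.75.

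**Figure D3:**
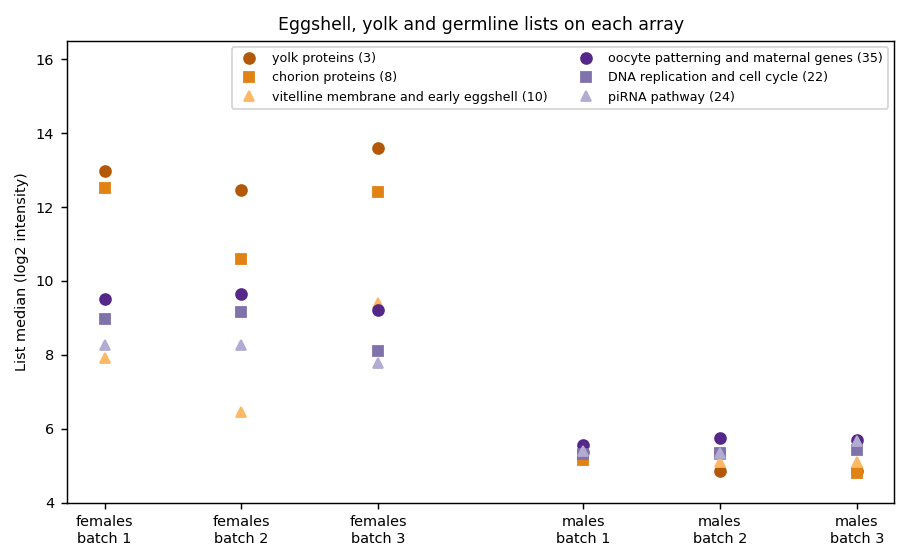
Median log2 intensity of 6 gene lists (number of genes in brackets) on each array, females left of males, with a marker for each list. Eggshell and yolk lists are lowest in females of batch 2, where the vitelline membrane median is 6.46, and the replication list is lowest in females of batch 3 at 8.11.

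The male germline lists held 76 measured genes, of which 72 were called higher in males and 65 at least 2-fold. Of 20 genes for sperm chromatin and tails, 19 were called, with a median of -6.66. Mst77F, a chromatin protein of sperm heads, was at 5.24, 5.33 and 5.23 in females, against 12.68, 12.45 and 12.74 in males, a difference of -7.36 ± 0.12 (adjusted p = 2e-21). The protamine genes ProtA and ProtB were low in females and differed by -7.34 and -6.25, and ocn by -8.28. The exception was Mst36Fb, at 4.71, 4.58 and 4.63 in females and 4.86, 4.89 and 4.28 in males. fzo, which fuses mitochondria in spermatids, had 5.62, 5.89 and 5.32 in females and 8.34, 8.33 and 8.34 in males.

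Genes that act earlier in the testis stood closer together. Of 13 genes for meiotic arrest and spermatocyte transcription 10 were called higher in males, with a median of -1.98. can and sa, testis forms of general transcription factors, were at 3.83, 3.79 and 3.7 and at 4.65, 4.37 and 4.47 in females, against 6.63, 6.13 and 6.72 and 7.37, 7.22 and 7.64 in males. aly (-0.13) and achi (-0.16) were low in both sexes and not called, and mip40 (0.16), which other cells also express, was called higher in females once arrays were shifted to a common median. comr, at -0.57, lost its call without any of female 1, male 1 and male 3, and with arrays at a common median (-0.35). The comet and cup genes, transcribed late in spermatids, were all called, 12 of 12, with differences of -2.01 (m-cup) to -5.46 (t-cup).

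The list of Y-linked fertility genes held 7 measured genes, 4 of them placed on the Y by the gene table used here, and all 7 were called higher in males, which carry the Y. ARY had 3.55, 3.32 and 3.44 in females, which have no Y chromosome, and 6.23, 5.98 and 6.42 in males. kl-3 and kl-5, dynein genes of sperm tails, were low in females and differed by -0.94 and -1.77. kl-2 (-0.48) and Ppr-Y (-0.80) were low in both sexes, and the call of kl-2 was lost without any of females 1, 2 and 3 and male 1. The female values of these genes give the intensity that their probe sets show with no gene present, 2.74 to 3.86 for the 6 genes other than Pp1-Y2. Pp1-Y2 read 5.98, 5.85 and 5.33 in females, against 7.64, 7.44 and 7.35 in males.

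Many housekeeping genes have a copy used in the testis, and these formed a group of their own. All 24 measured copies were called higher in males, with a median of -4.14. betaTub85D, the beta tubulin of sperm tails, was at 4.92, 5.56 and 5.06 in females and 12.7, 12.51 and 12.76 in males, a difference of -7.48. COX4L, a copy of a cytochrome c oxidase subunit, was at 4.93, 4.84 and 4.76 in females, against 11.49, 11.17 and 11.52 in males. Copies of proteasome subunits differed by -0.88 (Prosbeta4R2) to -4.87 (Prosbeta5R1). Probe sets of close copies can read both RNAs, which was not tested here.

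Families with copies for each germline split by copy. Among tubulin genes, alphaTub67C, the maternal alpha tubulin, was at 11.5, 11.46 and 10.65 in females and 5.75, 6.2 and 5.55 in males (5.37), and gammaTub37C, the maternal gamma tubulin, differed by 2.73. betaTub56D, used widely in the body, differed by 1.52, while alphaTub85E differed by -1.50. betaTub60D, at -0.46, lost its call without any of females 1 and 2 and males 1 and 3, and alphaTub84D (-0.27) and betaTub97EF (0.15) were not called. The X-linked neighbours dhd and TrxT, thioredoxin genes of the ovary and the testis, were further apart. dhd was at 13.34, 13.39 and 12.82 in females, against 5.84, 5.73 and 6.18 in males (7.27 ± 0.21). TrxT was low in females at 3.56, 3.66 and 3.22 and stood at 12.01, 11.77 and 11.74 in males (-8.36 ± 0.14).

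Of 35 genes of the cytosolic ribosome, 30 were called higher in females and 5 higher in males. RpS5b, the copy of RpS5a that is used in the ovary, was at 13.02, 13.1 and 12.74 in females, against 9.11, 8.85 and 9.21 in males, a difference of 3.89. The 5 genes higher in males were RpL10Aa (-5.32), RpL22-like (-4.38), RpS19b (-3.86), RpS10a (-2.15) and RpS28a (-1.15), each a second copy of a ribosomal protein gene. RpL22-like and RpS19b are also counted among the testis copies above. The other 29 genes higher in females differed by at most 1.51, and the list median was 0.72 against 0.20 for all genes. The mitochondrial ribosome list had 66 of 69 genes called higher in females, with a median of 1.00, from 0.12 to 1.89. mRpL1 was at 8.96, 8.9 and 8.83 in females and 6.8, 6.98 and 7.23 in males.

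Of 32 genes of respiratory complex I, none was called higher in females, against 38.9% of all genes, and 1 was with arrays shifted to a common median. Called higher in males were 7, a share near the 22.1% of all genes. The median was -0.16, which turned to 0.06 under that shift. Of the 7, 5 are second copies of subunit genes, ND-B14.5AL (-4.08), ND-24L (-3.37), ND-20L (-2.39), ND-51L1 (-2.08) and ND-51L2 (-1.94). The others were ND-13A (-0.76) and ND-B8 (-1.46), whose call was lost without female 2. Among genes with an interval of the difference within -0.5 to 0.5, the 6 highest in level were MtnA, a metallothionein gene, and 5 genes of the respiratory chain or ATP synthase (ATPsynF, blw, COX7B, ATPsynbeta and ATPsynC). ATPsynC was at 12.82, 12.66 and 12.59 in females and 13.04, 12.46 and 12.57 in males.

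**Figure D4:**
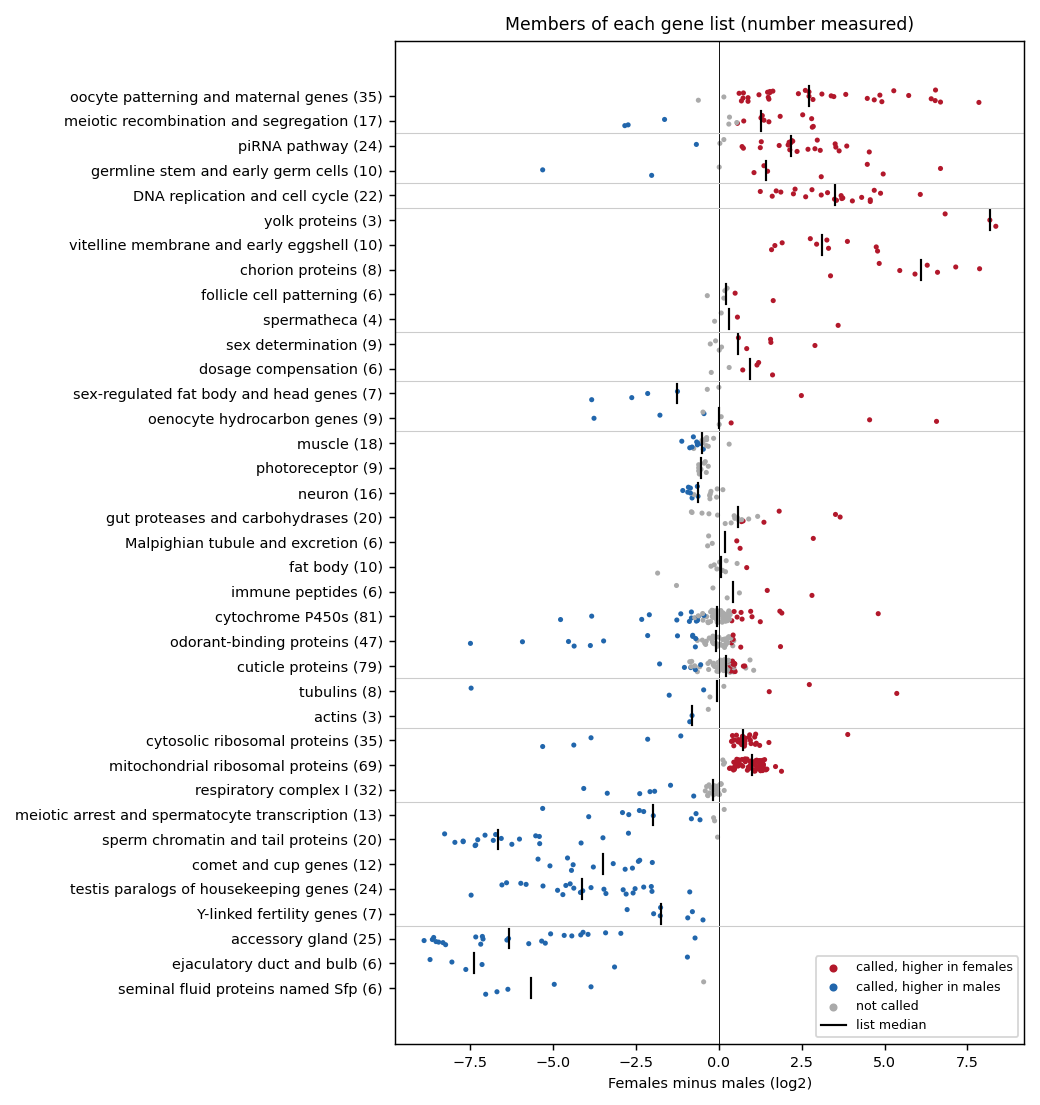
Difference of each member (points, females minus males, log2) in each gene list, grouped by the cells that use the genes, with the number measured in brackets; black ticks are list medians, red and blue points were called higher in females or in males, grey points were not called. The medians of the male reproductive soma and germline lists lie left of 0, with ejaculatory genes at -7.40, and the yolk median lies farthest right at 8.18.

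The lists of the male reproductive soma had a median of -6.37 over 37 genes, of which 36 were called higher in males. All 25 accessory gland genes were called higher in males, 24 of them at least 2-fold. SP, which encodes the sex peptide that alters the behaviour of mated females, was at 4.94, 5.48 and 5.02 in females and 12.35, 12.35 and 12.09 in males, a difference of -7.12 ± 0.16. Acp62F, a protease inhibitor gene of seminal fluid, was at 5.9, 5.78 and 5.67 in females and 12.46, 12.1 and 11.99 in males. The smallest difference was that of Acp95EF, at 6.7, 7.58 and 6.71 in females and 7.94, 7.73 and 7.5 in males. Its groups overlapped, and its call was lost without any of females 1 and 3 and males 1 and 2, and when arrays shared a median.

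All 6 genes of the ejaculatory duct and bulb were called higher in males. Ebp, which encodes a protein of the mating plug, was at 4.38, 5.87 and 4.45 in females and 13.12, 12.57 and 13.17 in males. Dup99B, the duct relative of the sex peptide, differed by -7.64, Anp, a duct antibacterial peptide gene, by -7.15 and Gld, glucose dehydrogenase, by -3.15. EbpIII was high in both sexes, at 11.67, 12.02 and 12.24 in females and 12.75, 13.04 and 12.98 in males. Of the 6 genes named as seminal fluid proteins (Sfp) 5 were called higher in males, with Sfp24Bb at -7.04, and Sfp65A (-0.46) was not.

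Odorant-binding proteins carry small molecules in the fluid around sensory neurons, and some are made in other organs. Of 47 genes 12 were called higher in males and 5 higher in females, and 10 and 15 with arrays at a common median. The median was -0.09 and turned to 0.13 under that shift. Obp51a was low in females at 4.21, 4.08 and 3.77 and stood at 11.68, 11.2 and 11.67 in males, a difference of -7.50. Obp56f, Obp56g, Obp22a, Obp44a and Obp56i differed by -5.93, -4.54, -4.37, -3.88 and -3.48. The farthest gene in the female direction was Obp19c, at 6.47, 5.82 and 8.73 in females and 5.29, 5.17 and 4.98 in males, and its call was lost without female 3. The count higher in females was 3 without female 3 or without male 3.

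Genes known to respond to sex in the fat body, head and oenocytes were read in the same whole-body RNA. Cyp4d21, a cytochrome P450 gene also named sxe1, was at 4.53, 4.38 and 4.31 in females and 7.89, 8.67 and 8.2 in males, a difference of -3.84. sxe2, a lipase gene, was at 6.54, 6.36 and 6.96 in females and 8.91, 9.2 and 9.65 in males. fit, a satiety peptide gene of the fat body, was at 8.84, 6.65 and 10.84 in females, against 6.54, 5.32 and 6.99 in males. Its groups overlapped, both sexes were lowest in batch 2, and the call was lost without female 3 or male 2. Obp99b, at 7.7, 5.59 and 7.4 in females and 9.31, 7.73 and 10.09 in males, was also lowest in batch 2 in both sexes and lost its call without female 2 or male 3. Obp99a, at -1.25, was called with overlapping groups, and Lectin-galC1 (-0.35) and dmrt93B were not.

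Oenocytes make the cuticular hydrocarbons, which serve as pheromones. Fad2 (desatF), the desaturase of female dienes, was at 11.1, 10.67 and 11.56 in females and 5, 4.1 and 4.5 in males, a difference of 6.57 ± 0.40. eloF, the elongase of the same pathway, was at 9.79, 9.55 and 10.81 in females and 5.98, 5.73 and 4.79 in males. Elo68alpha, an elongase gene of the male reproductive tract, was at 4.59, 5.08 and 4.83 in females and 9.16, 8.24 and 8.4 in males, and bond, another elongase gene, differed by -1.78. Desat1, the desaturase used by both sexes, was at 11.98, 12.01 and 12.22 in females and 11.88, 12.14 and 12.17 in males. Cyp4g1, the enzyme that releases hydrocarbons, differed by -0.45 and lost its call once arrays shared a median. Desat2, at 0.37, lost its call without any of females 1 and 3 and males 2 and 3.

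In the pathway that sets the sex of somatic cells, genes are known to differ by splicing more than by level, and probe sets of 1 gene disagreed here. dsx, the transcription factor gene at its end, had a probe set at 6.87, 7.02 and 7.92 in females and 4.16, 4.28 and 4.65 in males (2.90 ± 0.23). The second dsx probe set was at 4.53, 3.86 and 4.99 in females, against 7.01, 7.12 and 7.44 in males (-2.73 ± 0.23, adjusted p = 6.5e-10). Of 3 probe sets of Sxl, the switch gene of the pathway, 1 was called, at 7.99, 8.38 and 7.78 in females and 6.54, 7.07 and 7.13 in males. Of 7 probe sets of fru, 1 was called, at -0.66. tra, which splices dsx in females, differed by 0.84, ix, the partner of the female dsx protein, by 1.57, fl(2)d, a splicing gene, by 1.56 and vir by 0.59, while tra2 (0.08) and her (-0.10) were not called.

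Germline genes also split by probe set. exu, an RNA-localization gene of the oocyte with sex-specific transcripts, had a probe set at 10.27, 10.84 and 9.88 in females and 11.16, 10.62 and 11.07 in males. Its second probe set was at 5.39, 5.02 and 5.15 in females, against 12.46, 12.14 and 12.2 in males, a difference of -7.08. The second probe set of pum, a translational repressor gene, was at 8.91, 9.29 and 8.46 in females and 4.97, 5.21 and 5.76 in males (3.57), while the one read above differed by 0.15. Further list members had probe sets called in opposite directions, among them cact (1.63 and -0.64), Taf12L (-2.40 and 0.40) and r-cup. For r-cup the values were -2.39, -2.11 and 0.43, the last low in both sexes. For bol, dl and Tl a further probe set was not called. List counts rest on the 1 probe set read for each gene. Which transcripts each probe set reads was not analysed here.

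The dosage compensation complex raises transcription of the X chromosome in males. Its list named 8 genes, among them the noncoding RNA genes roX1 and roX2, and 6 were measured, so the complex was not read in full. Of these 6, 4 were called higher in females and none was called higher in males by limma, also at an unadjusted p under 0.05. mof and msl-3 differed by 1.15 and 0.72, and the fourth gene was Clamp. msl-1 was at 6.6, 6.6 and 6.6 in females and 4.63, 5.19 and 5.13 in males (1.62). msl-2, whose protein is made in males alone, was at 4.35, 4.42 and 4.54 in females and 4.32, 4.42 and 5.25 in males and was not called.

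Lists of organs that both sexes have were pooled with the cytochrome P450, odorant-binding and cuticle protein families, taken by name (81, 47 and 79 genes). These families hold single genes far from 0, such as Obp51a at -7.50 and Cyp6a19 at 4.81, and are not tied to 1 organ. Of the pooled 292 genes, 45 were called higher in females and 47 higher in males, with a median of -0.03. With arrays at a common median 102 and 33 of them were called, so the even split holds for the arrays as deposited and not under that scaling. Quantile normalization over all arrays gave 55 and 44, and that within each sex 46 and 45. Of 18 muscle genes 8 were called higher in males, among them sls, the titin-like spring protein of the sarcomere, at 7.67, 7.49 and 7.51 in females and 8.79, 8.68 and 8.55 in males. The muscle count was 3 with arrays at a common median, 5 after quantile normalization over all arrays and 7 after that within each sex, 2 without male 1, 2 without female 2 and 4 without female 3, and sls was the 1 member at least 2-fold apart. Of 3 actin genes, all also counted in the muscle list, Act87E (-0.81) and Act79B (-0.88) were called and Act88F (-0.32) was not. The call of Act79B was lost without male 1 or female 2. Of 16 neuronal genes 8 were called higher in males, Gad1, which makes the transmitter GABA, farthest at -1.09, with 8.62, 8.62 and 9.07 in females and 9.65, 10.11 and 9.83 in males. The neuronal count was 5 with a common median, 1 without female 1, 5 without female 2, 2 without male 2 and 3 without male 3. Of 9 photoreceptor genes none was called by limma, with differences of -0.32 to -0.61. One of the 9 had an unadjusted p under 0.05, and 1 was called with diet batch as a block, Arr1 at adjusted p = 0.0186. The photoreceptor count was 1 without male 1 and 2 without female 3.

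Most gut, renal and fat body genes were not called. Of 20 digestive enzyme genes, 6 were called higher in females, a smaller share than the 38.9% of all genes, and 12 with arrays at a common median. Jon66Ci and Jon99Fi, serine protease genes of the midgut, were at 9, 10.13 and 10.08 and at 8.45, 11.28 and 8.63 in females, against 5.52, 6.67 and 6.06 and 5.97, 6.1 and 5.73 in males. Prip, an aquaporin gene, was at 11.1, 11.14 and 10.7 in females and 7.87, 8.51 and 8.01 in males, a difference of 2.85, and Irk1, a potassium channel gene, and Vha55, a proton pump gene, by 0.64 and 0.54, while the other 3 of 6 renal genes were not called. Of 10 fat body genes Mtp (0.84) was the 1 called, against 3 with a common median, and Lsp2, a storage protein gene, was at 5.99, 6.75 and 7.3 in females and 7.54, 9.99 and 8.07 in males. Lsp2 missed the threshold at adjusted p = 0.0532, and passed at 0.0388 with diet batch as a block, 0.0173 with the compared arrays alone, 0.0456 with a filter on low means and 0.0449 after quantile normalization over all arrays. bmm, a lipase gene, at 0.55, also passed with the block and with a common median, both at adjusted p = 0.0185 by limma. Among immune peptides, Drs, the antifungal peptide drosomycin, was at 11.83, 11.78 and 12.33 in females and 8.79, 9.82 and 8.89 in males, and Def differed by 1.46, while the other 4 of 6 were not called.

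Of 81 cytochrome P450 genes, 11 were called higher in females and 14 higher in males, against 24 and 12 with a common median, where the median of -0.06 turned to 0.16. Cyp6a19 was at 10.18, 10.47 and 9.26 in females and 4.72, 5.82 and 4.93 in males (4.81). Cyp312a1 was at 5.11, 4.85 and 5.19 in females and 9.98, 9.51 and 10 in males (-4.78). Cyp18a1, which breaks down the steroid ecdysone, differed by 1.25. Of 79 cuticle protein genes 17 were called higher in females, each by less than 2-fold, and 5 higher in males, but 43 and 3 with a common median, and 4 and 3 without male 3. The count higher in females was 10 without female 1, 11 without female 2 and 6 with the 6 compared arrays fitted alone. The largest cuticle difference was that of Cpr67Fb, at 5.53, 5.65 and 5.37 in females and 6.86, 6.62 and 8.43 in males.

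Genes of the X chromosome leaned to females. Chromosome arms came from the Release 6 gene table for 11892 genes. Of 1873 genes on the X, 525 (28.0%) were called higher in females by 2-fold or more and 243 (13.0%) higher in males. On arms 2L, 2R, 3L and 3R together 1837 (18.5%) of 9949 genes and 1658 (16.7%) were. Differences of 16-fold or more higher in males were found for 55 X-linked genes (2.94%) and 645 autosomal genes (6.48%). The median difference was 0.36 on the X and 0.18 on those arms. Yp1, Yp2 and Yp3, Cp36 and dhd are X-linked, and so is TrxT. Genes are not independent replicates, so no test was made of these shares.

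**Figure D5:**
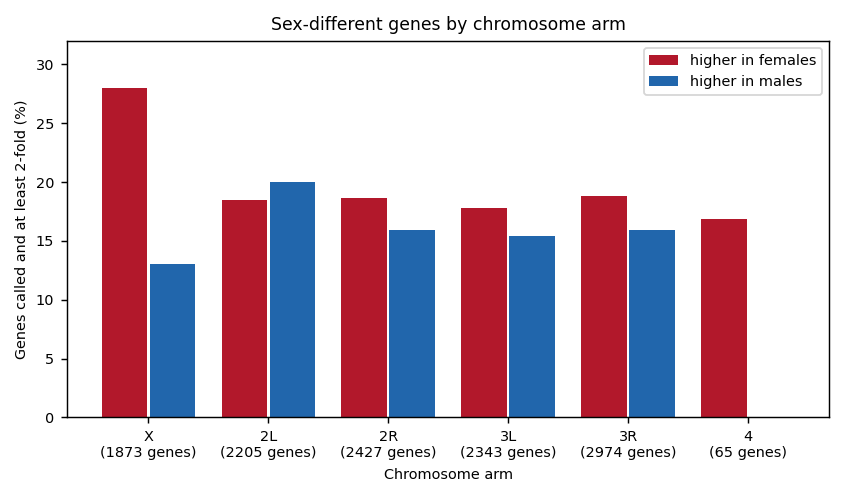
Share of the measured genes of each chromosome arm that were called and at least 2-fold apart (percent), with the bar of genes higher in females left of the bar of genes higher in males and the number of genes under each arm. The X has 28.0% higher in females and 13.0% higher in males.

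The same comparison in other genotypes used no array of the arm-GAL4 control, though the spread in the fit is shared. Of the 2377 genes higher in arm-GAL4 females by 2-fold or more, 2375 were also higher in Act5C-GAL4 control females than in Act5C-GAL4 control males, and 2377 in females labelled knockdown. Of the 1922 higher in arm-GAL4 males, 1920 and 1922 were also higher in males of those genotypes. These genes were picked at 2-fold or more, so the same direction alone is a mild measure. Differences of at least 2-fold in the same direction were found for 1996 and 2270 of the 2377, and for 1800 and 1869 of the 1922. List medians were close for yolk genes, at 8.18 in the arm-GAL4 control, 8.15 in flies labelled knockdown and 7.53 in the Act5C-GAL4 control. For the vitelline membrane they were 3.11, 4.25 and 4.16, and for accessory gland genes -6.35, -6.70 and -6.85. Among lists with small medians, muscle genes had -0.49, -0.57 and -0.45 and neuronal genes -0.64, -0.25 and -0.36. Immune peptides, at 0.44, -0.18 and 0.79, changed sign. None of the 707 list members was called by limma in a test of the difference between genotypes, and 40 had an unadjusted p under 0.05 against the Act5C-GAL4 control and 27 against flies labelled knockdown. Over all 18769 probe sets the counts at that unadjusted threshold were 826 and 513.

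After adjustment, the sex difference itself differed for 16 probe sets (0.0852%) between the arm-GAL4 and Act5C-GAL4 controls and for 6 (0.032%) between the arm-GAL4 control and flies labelled knockdown. CG32687 was at 8.41, 8.37 and 9.06 in arm-GAL4 females and 5.38, 5.99 and 6.34 in arm-GAL4 males, against 9.72, 9.21 and 9.74 and 9.47, 9.56 and 9.74 in Act5C-GAL4 females and males (2.74 ± 0.38, adjusted p = 0.002). Sdic3, of a cluster of near-identical sperm dynein genes that its probes may not tell apart, was at 5.63, 5.19 and 5.26 in arm-GAL4 females and 8.92, 8.53 and 8.89 in arm-GAL4 males, against 5.43, 5.14 and 5.05 and 5.64, 6.98 and 6.03 in the Act5C-GAL4 control. CG1304 was at 3.8, 3.78 and 3.93 in arm-GAL4 females and 4.12, 4 and 3.99 in arm-GAL4 males, low in both. In flies labelled knockdown it was at 6.93, 6.33 and 7.78 in females and 3.93, 3.61 and 3.77 in males, a difference of -3.45 between the sex differences of the 2 genotypes.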

How the data were processed

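Total RNA was measured as biotin-labelled cRNA on Affymetrix arrays, per the labels. The authors used RMA, per the submitters' processing notes, and deposited intensity on a linear scale, from 5.2 to 20754; RMA's version and later scaling are not stated in the sources used. RMA compresses large differences, and the number of arrays limits the precision. From these, log2 was taken with no pseudocount, and 183 control probe sets were left out, 30 of which passed the female against male test. Gene names came from the platform annotation: 13646 of 18769 probe sets name 1 gene, 402 several and 4721 none here. Symbols were matched to the Release 6 gene table.

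limma 3.58.1 (R 4.3.3, lmFit and eBayes) was fitted to all 24 arrays with 8 group means; p-values were adjusted by Benjamini-Hochberg over the 18769 probe sets, and intervals are 95%. The script was tested on simulated data. Replicate numbers mark the diet batch in the labels and so pair the samples; same-batch correlations of deviations were 0.283, 0.0944 and 0.184. Named genes are the 12 largest called differences each way with arrays not overlapping and all 3 pairs alike, list members by size, 6 high genes with an interval within -0.5 to 0.5, and 4 each way in the genotype contrasts. Genes shown for disagreeing probe sets or spread were chosen after their values were seen. Members and lists were chosen with earlier results of these data known. Alternatives were the 6 compared arrays alone, the block, a mean log2 of at least 5, 3 scalings, trend and robust moderation, array weights, 1 probe set per gene and arrays left out; Python 3.11.15 made tables and plots.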

Additional observations from a re-analysis of the deposited data

Results flagged for a closer look

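A sex difference that itself differed between genotypes, by limma's contrast of differences, was found for 22 probe sets, given here as the arm-GAL4 difference minus the other genotype's. Against the Act5C-GAL4 control the values were 2.74 for CG32687, 1.31 for CG10970, 0.80 for peo and 0.90 for a probe set with no gene name here. In the other direction they were -2.41 for Sdic3, -2.08 for CG31244, -1.75 for CG42272, -1.51 for Ptp10D, -1.20 for yip3, -1.07 for CG10909, -0.99 for CG14410, -0.96 for CG14826, -0.95 for brv2 and -0.89 for CG31933. A probe set shared by Sdic genes and sw had -1.26, and one shared by CG31960 and CR31958 had -1.23. Against flies labelled knockdown the values were 4.73 for an unnamed probe set, 1.60 for CG15635, 1.35 for CG32006, -1.33 for Cht10, -3.45 for CG1304 and -3.62 for another unnamed probe set. Of the 16 calls against the Act5C-GAL4 control, 11 were lost without some single array, and the 5 kept were CG32687, Sdic3, CG42272, Ptp10D and the probe set of Sdic genes and sw. Of the 6 against flies labelled knockdown, CG32006 was lost without some array and 5 were kept.

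For CG42272 the difference lay between males, with 4.93, 4.78 and 4.62 in arm-GAL4 females and 6.35, 6.17 and 6.44 in arm-GAL4 males, against 5.49, 4.89 and 5.15 and 4.96, 5.02 and 4.91 in the Act5C-GAL4 control. Ptp10D, a receptor tyrosine phosphatase gene, was at 6.94, 7.19 and 6.67 in arm-GAL4 females and 5.33, 5.63 and 5.77 in arm-GAL4 males, against 6.15, 6.41 and 5.84 and 3.44, 3.39 and 2.96. CG15635 was at 5.65, 5.42 and 5.61 in arm-GAL4 females and 8.23, 8.22 and 8.41 in arm-GAL4 males, against 5.41, 5.38 and 5.46 and 9.64, 10.11 and 9.47 in flies labelled knockdown.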

How the results depend on the processing

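Probe sets called between females and males, 9282 in the fit described, numbered 8089 to 13268 under the alternatives that kept the test against 0 and several probe sets per gene (7433 of 11981 with 1 probe set per gene), 9652 with the replicate block and 8213 to 9611 with single arrays left out, and 3397 (1549 higher in females and 1848 higher in males) by limma's test against a 2-fold difference. Called and at least 2-fold they numbered 4813 to 5598 (4302 with 1 probe set per gene), 4957 with the block and 4832 to 5164 with arrays left out. Of 723 named genes and list members 458 were called between the sexes, 396 of these kept the call without every single array and 62 lost it without some array; none reversed while called under the alternatives run on single genes. The 16 calls against the Act5C-GAL4 control (826 at an unadjusted p under 0.05) became 10 with the compared arrays alone, 26 with array weights, 17 with the block and 6 to 14 with arrays left out, the lowest without Act5C-GAL4 control female 1 or arm-GAL4 control male 1. The 6 calls against flies labelled knockdown became 3 with a mean log2 of at least 5, 3 with 1 probe set per gene, 7 with the block and 5 to 6 with arrays left out. The block changed 1 list member from called to not called, Cpr64Ab, and 17 the other way, and moved none of the counts over all probe sets by over 1.5 times; among lists it moved fat body genes to 2 higher in females and 1 higher in males, in place of 1 and 0, and photoreceptor and gut genes higher in males to 1 each, in place of 0. The cause of these changes was not tested. Levels near the low end of an array, and 3 arrays in each group, limit the size of the differences of genes low in 1 sex.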

Other observations

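Genes with the largest spread among female arrays, chosen after their values were seen, were not all eggshell genes. Jhbp5, of a juvenile hormone binding protein family, was at 7.06, 6.35 and 9.86 in females, against a mean of 11.77 in males. LManIII, a lysosomal mannosidase gene, was at 5.56, 10.26 and 6.36 in females and Osi6 at 4, 8.69 and 4.75, both highest in female 2, and neither was called between the sexes. LManIII was also highest in batch 2 among males, at 7.4, 9.89 and 7.39.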
